A study of Mus musculus with 6 samples.

Results

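The effect of BHPF that liver, ovary and uterus share was described from all 6 of the 6 arrays of the series, chosen as the BHPF array and the control array of every tissue, which gives 3 pairs. BHPF, a fluorene-based bisphenol used in making plastics, was given by gavage at 50 mg kg-1 bw d-1 for 3 days to immature female mice of the outbred stock CD-1, and control females of the same stock and age received peanut oil, the vehicle. The labels give an age of 24 days for both groups. Each one-colour Agilent array held RNA pooled from 3 mice, so the spread between animals was not measured. The number of mice described per group for the arrays equals the number in each pool. The liver, ovary and uterus pools of a treatment thus probably came from the same mice, though the source does not say so outright. In that case the tissue pairs are not independent sets of animals. All arrays lay on 1 slide with 1 scan time, and control and BHPF arrays held different positions, so the treatment, the mice of a pool and the position on the slide cannot be told apart.

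The level of a probe is its log2 intensity minus the 75th percentile of its array, and its log2 ratio is the BHPF level minus the control level in the same tissue. Means of the 3 ratios are given with the SD among tissues (n = 3). Of 55681 probes, 30536 were well above background on every array and were tested, and 17597 of them carried a gene symbol, for 13702 genes. The number of arrays limits the precision. Genes outside the smallest p, the largest ratios and the first 3 measured genes of each list were picked for mention after their values were seen. The lists themselves were chosen with earlier results of these data known. Their medians and shares, set against all tested genes, are thus descriptions and no independent support.

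The tissue labels were checked against marker genes. Hepatocyte markers had a summed intensity, in multiples of the 75th percentile of the array, of 654 on the control liver array, 11.6 on the control ovary array and 5.07 on the control uterus array. Oocyte markers summed to 59.9 on the control ovary array against 4.06 in liver and 3.91 in uterus, and smooth muscle markers to 124 on the control uterus array against 8.80 in liver and 49.3 in ovary. The markers were thus highest in the tissue named by the label.

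Neutrophils are short-lived white blood cells that leave the bone marrow with granules full of antimicrobial proteins and patrol the vessels of every organ. Their cytoplasm is rich in the calcium-binding alarmins S100A8 and S100A9, and in mice they also carry stefin A proteins, which inhibit cysteine proteases of the cathepsin type. Myeloid cells, the wider class that includes monocytes and macrophages, display paired activating and inhibitory receptors encoded in gene clusters, among them the SIRP, LILR and PILR families.

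Among probes at least 1.5-fold apart in all 3 tissues, those with a gene symbol were mostly lower on the BHPF arrays. Among the tested probes, 40 were at least 1.5-fold lower with BHPF in all 3 tissues (0.131% of those tested) and 24 at least 1.5-fold higher (0.0786%), while 11 were at least 2-fold lower (0.036%) and 6 at least 2-fold higher (0.0196%). In a deposited table by the authors the 2 uterus columns hold each other's array. The labels of the scanner files were followed, which labelling is right was not tested, and under the other one every uterus ratio in this text would take the opposite sign. With that table as headed 5 probes were at least 1.5-fold lower and 4 at least 1.5-fold higher in all 3 tissues. The 40 lower probes included 34 with a symbol, for 28 genes. The 24 higher probes included 2 with a symbol, *Tmem179* and *Cyp26b1*, and 14 that the array design names only by a chromosome interval. No probe passed the limma test with tissue as block at an adjusted p of 0.05 (0% higher and 0% lower), so the values that follow are described as higher or lower on the arrays and not as changes.

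*Stfa3*, a stefin A gene, had levels of 2.61, −2.31 and −0.87 on the control liver, ovary and uterus arrays and of −3.60, −5.08 and −3.02 on the BHPF arrays. *Cstdc5*, of the same family, had control levels of 3.38, −0.85 and 0.42 and BHPF levels of −2.05, −3.16 and −1.67 in the same order. *Stfa1* had control levels of 2.65, −1.996 and −0.69 and BHPF levels of −1.98, −4.30 and −2.82. Each of the 3 genes was lower on the BHPF array of every tissue, and in each the liver gap was the widest. The mean log2 ratios were −3.71 ± 2.19 for *Stfa3*, −3.27 ± 1.87 for *Cstdc5* and −3.02 ± 1.40 for *Stfa1*, and the adjusted p was 0.680 for each. These were the 3 members of a list of stefin A genes, 10 of which are on the array, that were tested. Their median was −3.27, against 0.0043 over all 13702 tested genes. The list was chosen with earlier results of these data known, so this gap is a description only. Over the 10 genes the summed intensity was 41.8, 1.56 and 4.05 on the control liver, ovary and uterus arrays and 1.13, 0.28 and 1.004 on the BHPF arrays. On the control arrays 9, 8 and 9 of the 10 genes were well above background in liver, ovary and uterus, and on the BHPF arrays 9, 4 and 7. The share of all probes well above background was also smaller on each BHPF array, at 61.4% in liver, 69.4% in ovary and 64.8% in uterus against 63.9%, 74.6% and 68.9% on the control arrays.

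*S100a8*, the first of the alarmin pair, had levels of 3.26, −0.72 and 0.86 on the control liver, ovary and uterus arrays and of 0.54, −3.85 and −0.66 on the BHPF arrays. It was lower with BHPF in each tissue, by the most in ovary, with a mean log2 ratio of −2.46 ± 0.84 and an adjusted p of 0.647. *S100a9*, which encodes its partner subunit, had ratios of −2.27 in liver, −2.55 in ovary and −1.003 in uterus. *Lcn2*, an iron-siderophore binding protein of neutrophil granules that epithelia and the liver also make, had control levels of 5.19, 0.96 and 4.24 and BHPF levels of 4.01, −0.28 and 3.55. Its mean log2 ratio was −1.04 ± 0.30, with an adjusted p of 0.676.

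The list of neutrophil granule and alarmin genes had 29 members on the array, of which 18 were tested. Of these, 10 were lower with BHPF in all 3 tissues (55.6%, against 13.6% of all tested genes) and 1 was higher in all 3 (5.56%, against 15.3%). With the uterus sign turned, 5 were lower (27.8%, against 13.4%) and 0 higher. This list too was chosen with earlier results of these data known, so its shares are a description only. The median log2 ratio of the list was −1.25 in liver, −0.85 in ovary and −0.36 in uterus, and the median of the means was −0.96. *Mmp8*, a collagenase of the granules, had ratios of −3.48, −1.32 and −1.71 in liver, ovary and uterus. *Camp*, the cathelicidin precursor, had −2.68, −1.13 and −1.06, and *Retnlg*, a resistin-like protein, had −2.38, −2.08 and −0.47. The gene higher in the 3 tissues was *Trem1*, a receptor that amplifies inflammatory signals, with a mean of 0.14. *Ltf*, which encodes lactoferrin and is made both by neutrophils and by the uterine epithelium under oestrogen, was lower in liver (−4.18) and ovary (−3.98) but stood at 0.037 in uterus. *Csf3r*, the receptor for granulocyte colony-stimulating factor, had ratios of −0.15, −0.012 and 0.034, and *Cxcr2*, a chemokine receptor of neutrophils, had −0.94, −0.10 and 0.17. The list thus did not move as a block, and *Mmp8*, *Camp* and *Retnlg* had lower ratios in each tissue than these receptors.

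The summed intensity of the 29 neutrophil genes was 160, 33.8 and 74.2 on the control liver, ovary and uterus arrays and 97.9, 28.3 and 65.6 on the BHPF arrays. The number of them well above background went from 28, 26 and 27 on the control arrays to 22, 20 and 24 on the BHPF arrays. Other lists had fewer such genes as well, with erythroid markers going from 15 to 11 in liver and histone genes from 16 to 12 in uterus. In tissue RNA, fewer cells of a type and less RNA per cell cannot be told apart, and the part of cell numbers in these values was not tested.

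**Figure D1:**
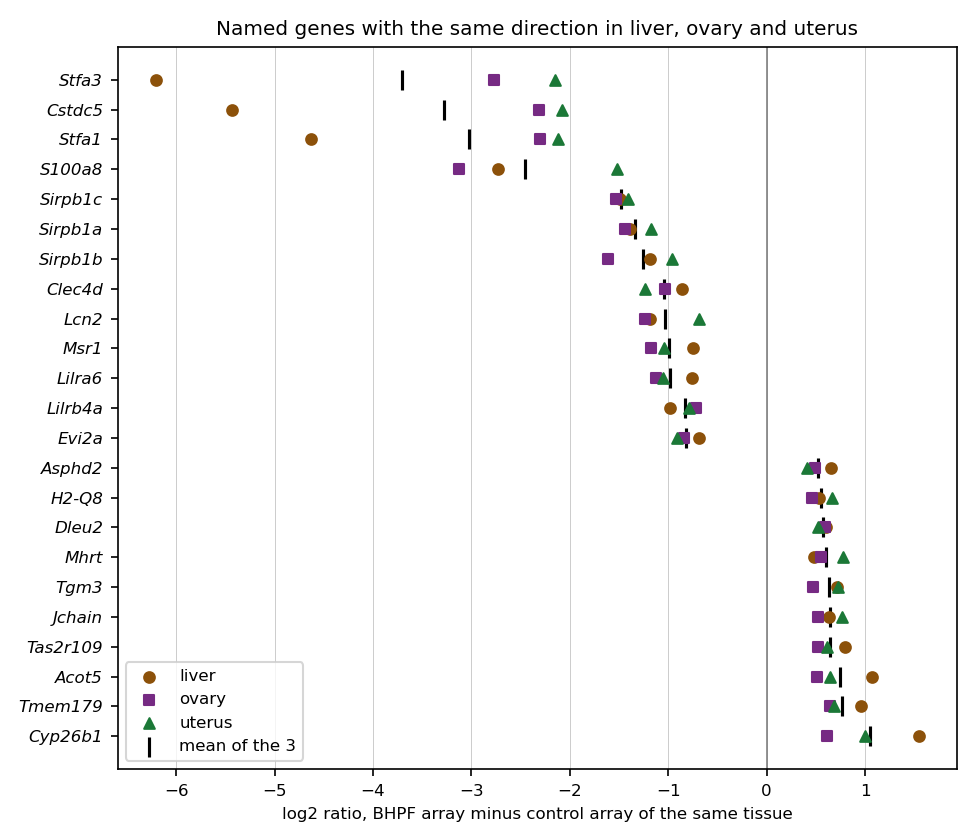
Log2 ratio (BHPF array minus control array of the same tissue, horizontal axis) of 23 genes with the same direction in 3 tissues, named for their small p or for the size of their weakest ratio. Circles are liver, squares ovary and triangles uterus, and the bar is the mean of the 3. The points of *Sirpb1c* lie within −1.53 and −1.41, while those of *Stfa3* spread from −6.21 to −2.15.

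Of the 13 lower genes in the plot, the most even among tissues was *Sirpb1c*, a signal-regulatory protein beta, a family of myeloid receptors that signal through an adaptor with an activating motif. Its levels were −1.33, −3.42 and −2.94 on the control liver, ovary and uterus arrays and −2.82, −4.95 and −4.35 on the BHPF arrays. The ratios were −1.49, −1.53 and −1.41, with a mean of −1.48 ± 0.060 and an adjusted p of 0.406, the smallest of the test. *Sirpb1a* had control levels of 0.34, −1.62 and −0.94 and BHPF levels of −1.05, −3.05 and −2.12 on its brighter probe, with a mean log2 ratio of −1.33 ± 0.14. The mean of its other probe was −1.47, and that of *Sirpb1b* was −1.25 ± 0.33. All 4 tested probes of the family, which stand for 3 genes, were lower in the 3 tissues. The SIRP, LILR, PILR and other families named here were chosen after their values were seen. Probes of 1 gene are not independent, and closely related genes of a family may not be either. The family counts are thus not counts of separate observations. Over all tested probes 11% were lower and 20.6% higher in the 3 tissues. With the uterus sign turned, the family probes counted as lower or higher in the 3 tissues would no longer share a direction.

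The LILR family encodes activating and inhibitory immunoglobulin-like receptors for MHC class I molecules and other ligands on myeloid cells. All 8 of its tested probes, for 6 genes, were lower with BHPF in the 3 tissues, against 11% of all tested probes. Their means went from −1.37 to −0.83, with a median of −1.15. *Pira2* had ratios of −0.88, −1.94 and −1.29 in liver, ovary and uterus, and *Lilra6* had control levels of 2.36, −1.84 and −0.68 and BHPF levels of 1.61, −2.97 and −1.74. *Lilrb4a*, an inhibitory member, had a mean of −0.83 ± 0.13 on its brighter probe and of −1.27 on the other. In the PILR family, which pairs the inhibitory *Pilra* with activating *Pilrb* genes, 5 of 6 probes were lower in the 3 tissues. The exception was a probe of *Pilrb2* with a mean of −0.16 and a uterus ratio of 0.18.

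Formyl peptide receptors let phagocytes sense bacterial and mitochondrial peptides. Both tested members were lower in the 3 tissues, *Fpr2* with ratios of −2.05, −1.63 and −0.74 and *Fpr1* with −0.89, −1.47 and −0.069. *Clec4d*, a C-type lectin receptor of myeloid cells, had control levels of −1.57, −2.51 and −2.60 and BHPF levels of −2.44, −3.54 and −3.83, with a mean log2 ratio of −1.04 ± 0.19. Of 7 tested probes of the Clec4 family, 3 were lower in the 3 tissues, and 1, for the Kupffer cell gene *Clec4f*, was higher with a mean of 0.48. Over all tested probes 11% were lower and 20.6% higher in the 3 tissues. *Hpse*, which encodes heparanase, was chosen after its values were seen for its even ratios of −0.62, −0.65 and −0.63. *Evi2a*, a membrane protein gene that lies within an intron of *Nf1*, had a mean of −0.81 ± 0.12.

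Macrophage and Kupffer cell markers differed from gene to gene. Of 19 on the array 18 were tested, and their median ratios were −0.29 in liver, −0.52 in ovary and 0.020 in uterus. In all 3 tissues 5 were lower (27.8%, against 13.6% of all tested genes) and 2 higher (11.1%, against 15.3%). Turning the uterus sign gave 7 lower and 1 higher. *Marco*, a scavenger receptor, had control levels of 3.57, 0.062 and 1.097 and BHPF levels of 1.72, −2.65 and 0.71. *Msr1*, another scavenger receptor, had ratios of −0.75, −1.17 and −1.04, and *Adgre1*, which encodes the macrophage antigen F4/80, had −0.83, −1.24 and −0.12. The higher members were *Vsig4*, a complement receptor, with ratios of 0.28, 0.38 and 1.04, and *Clec4f* with 0.22, 0.027 and 1.21, both largest in uterus, where hepatocyte markers were higher too. *Csf1r*, which encodes the receptor for the macrophage growth factor, had −0.30, −0.20 and −0.030. The summed intensity of the markers was 138, 23.7 and 28.6 on the control liver, ovary and uterus arrays and 112, 16.6 and 29.0 on the BHPF arrays. All 19 were well above background on both liver arrays.

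Other blood cell markers did not share a direction. Monocyte markers had a median of −0.082 over 9 tested genes, with *Ifitm6* at −2.56 in liver and 0.14 in uterus. Markers of eosinophils and mast cells had a median of 0.0081 over 8 genes, which turned negative under scaling to the 50th percentile, quantile normalization and cyclic loess. Of these genes 3 were lower (37.5%, against 13.6% of all tested genes) and 2 higher (25%, against 15.3%) in the 3 tissues. With the uterus sign turned 1 was lower and 0 higher. The ribonucleases *Ear1* and *Ear2* had means of −0.72 and −0.76, and *Prg3*, a granule protein of eosinophils, had one of 0.33. Platelet markers had a median of −0.57 in liver, 0.13 in ovary and 0.35 in uterus over 7 genes, and *Ppbp*, a platelet chemokine, had a liver ratio of −2.24. Natural killer cell markers had a median of 0.42 in liver, −0.16 in ovary and 0.39 in uterus over 13 genes. T cell markers (14 tested) had a median of 0.16, and B cell markers (11 tested) one of 0.11 that turned to −0.027 under scaling to the 50th percentile. Erythroid markers, of which 10 were tested, had a median of −0.052. None of these lists held a called gene.

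Acute-phase proteins are secreted, mainly by the liver, within hours of an inflammatory signal. *Saa3*, the serum amyloid A that macrophages and fat also make, had control levels of 4.72, 0.14 and 1.84 and BHPF levels of 2.11, −4.13 and 1.08. It was lower with BHPF in each tissue, with a mean log2 ratio of −2.55 ± 1.76 and a wide spread, from −4.27 in ovary to −0.76 in uterus. *Saa1* had ratios of −0.94, −1.22 and −0.64, whereas *Saa2* was lower in liver (−1.15) and higher in ovary (1.13). Of 16 tested acute-phase genes 6 were lower and 1 was higher in the 3 tissues, and the list median was −0.35 in liver, −0.30 in ovary and 0.42 in uterus. The shares were 37.5% lower and 6.25% higher, against 13.6% and 15.3% of all tested genes. With the uterus sign turned 6 were lower and 0 higher.

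Several acute-phase genes that hepatocytes express strongly were high on the BHPF uterus array. The fibrinogen genes *Fgb* and *Fgg* had uterus ratios of 4.54 and 5.03, against −0.19 and 0.075 in liver. Hepatocyte markers, 16 of 20 tested, had a median ratio of 0.047 in liver, 0.18 in ovary and 3.57 in uterus. Of the 16, 9 were higher in the 3 tissues (56.2%, against 15.3% of all tested genes) and none lower. With the uterus sign turned, 0 were higher and 2 lower. The summed intensity of the 20 went from 5.07 on the control uterus array to 54.1 on the BHPF uterus array, from 11.6 to 13.6 in ovary and from 654 to 652 in liver. *Alb*, which encodes serum albumin, had a level of −0.92 on the control uterus array and of 3.36 on the BHPF uterus array. The part of liver RNA in the uterus ratios was not tested.

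**Figure D2:**
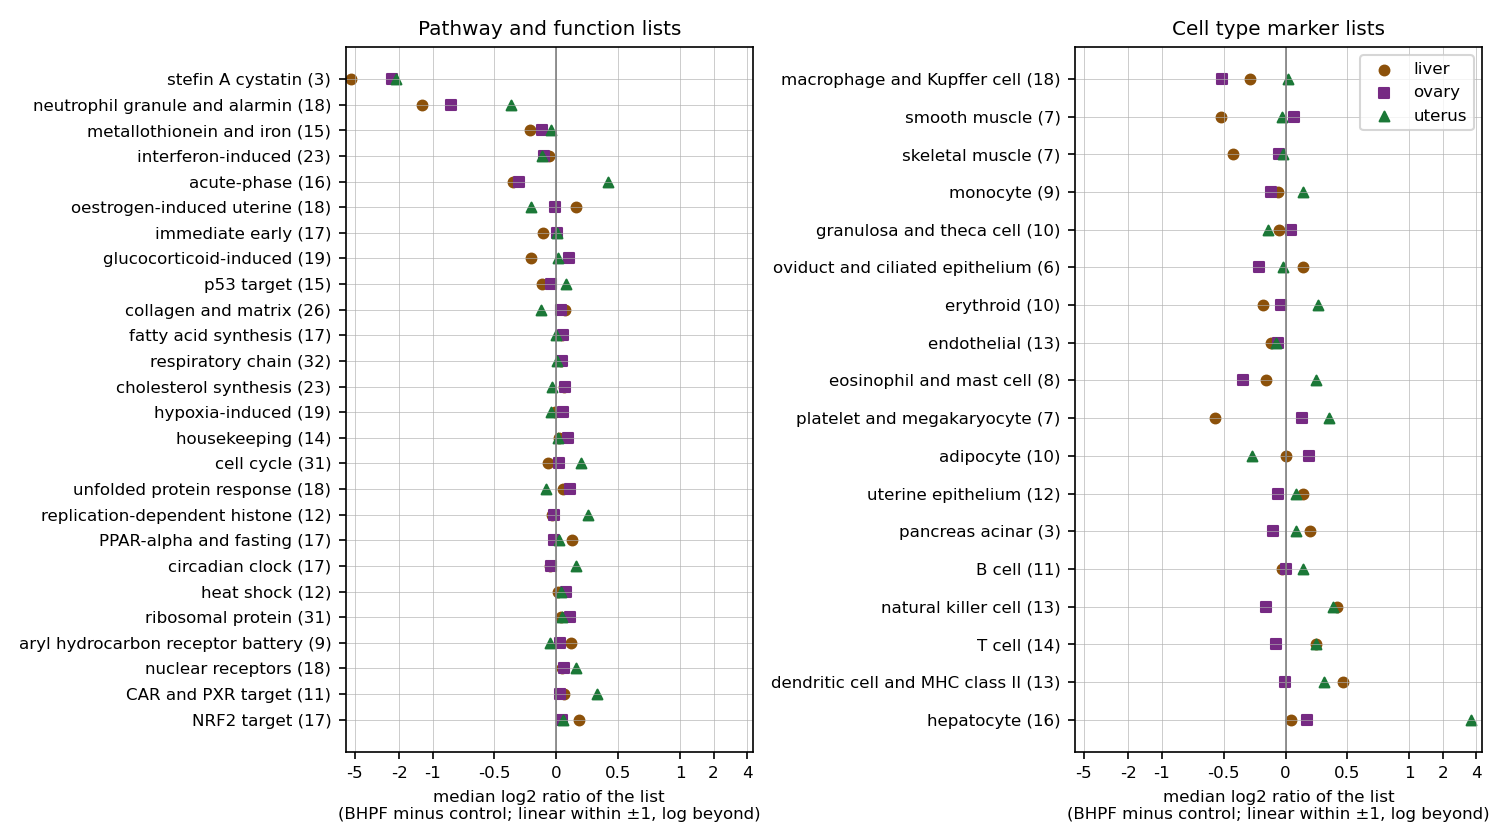
Median log2 ratio (BHPF minus control) of each gene list and cell type marker list, with the number of tested genes in brackets; circles are liver, squares ovary and triangles uterus, and the axis is linear within ±1 and logarithmic beyond. The stefin A genes lie farthest left in every tissue, and the hepatocyte markers reach 3.57 in uterus; with the uterus sign turned these uterus medians would be 2.12 and −3.57.

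Interferon-induced genes encode antiviral proteins that respond to type I interferon. Of 23 tested, 7 were lower (30.4%, against 13.6% of all tested genes) and 2 higher (8.7%, against 15.3%) in the 3 tissues. Their median was −0.067, and with the uterus sign turned 3 were lower and 3 higher. *Irf7*, the transcription factor that amplifies the interferon response, had an even set of ratios of −0.70, −0.58 and −0.69, while *Ifit3*, a member higher in the 3 tissues, had 0.59, 1.41 and 0.40. *Ifi202b*, of the p200 family of DNA sensors, had means of −0.82 and −0.73 on its 2 probes. *Cxcl10*, a chemokine for T cells, was higher in liver (0.78) and uterus (1.22) but not in ovary (−0.31).

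On the higher side, *Cyp26b1*, the enzyme that degrades retinoic acid, had the largest mean of the 10 genes in the plot of named genes. Its levels were −1.89, −2.86 and −2.12 on the control liver, ovary and uterus arrays and −0.34, −2.25 and −1.13 on the BHPF arrays, with a mean log2 ratio of 1.05 ± 0.47 and an adjusted p of 0.680. *Tmem179*, a membrane protein gene with dim signal, had control levels of −5.45, −2.37 and −4.21 and BHPF levels of −4.49, −1.73 and −3.52. *Acot5*, a peroxisomal acyl-CoA thioesterase, had ratios of 1.07, 0.51 and 0.64 on its brighter probe, and its other probe had a mean of −0.22. Among 12 tested probes of the acyl-CoA thioesterases, 2 were higher and 1 was lower in the 3 tissues, so *Acot5* did not stand for its family. Over all tested probes the shares were 20.6% higher and 11% lower.

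*Jchain*, which encodes the joining chain of polymeric antibodies and marks plasma cells, had ratios of 0.64, 0.52 and 0.76. *Dleu2*, a long noncoding RNA that hosts microRNAs, was the most even of the 10, with 0.61, 0.60 and 0.52 and a mean of 0.57 ± 0.047. *Tgm3*, a transglutaminase of epithelia, and *Tas2r109*, a bitter taste receptor gene, each had a mean of 0.64. *Mhrt*, a noncoding RNA of the myosin heavy chain locus, had a mean of 0.61 at levels between −4.88 and −3.54. Of the 10 higher genes in the plot, all but *Acot5* and *H2-Q8* had levels below 0 on every array. *H2-Q8*, an MHC class I gene, had a level of 0.68 on the control liver array, 1.22 on the BHPF liver array, and its mean log2 ratio was 0.55.

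MHC class II molecules present peptides to helper T cells and are found on dendritic cells, B cells and macrophages. *H2-Aa* had control levels of 2.64, 1.30 and 2.13 and BHPF levels of 3.25, 1.57 and 2.48, and *H2-Ab1* and *H2-Eb1* had mean log2 ratios of 0.49 ± 0.22 and 0.53 ± 0.19. A second, dimmer probe of *H2-Ab1* had mixed signs, with 0.86, −0.045 and 0.39. *Cd74*, the invariant chain that escorts these molecules, had ratios of 0.93, 0.34 and 0.45, and *H2-DMa*, which loads their peptides, had 1.099, 0.080 and 0.36. By the brightest probe of each gene these were the 5 higher in the 3 tissues among 13 tested dendritic cell and MHC class II markers, whose median was 0.20. The other markers in the list had mixed signs, apart from *Zbtb46*, a transcription factor of classical dendritic cells, which was lower in the 3 tissues with a mean of −0.19. The share of the list higher was 38.5%, against 15.3% of all tested genes. With the uterus sign turned, 0 of the list were higher and 2 lower in the 3 tissues. The summed intensity of the 15 markers went from 39.8 to 54.4 in liver, from 25.0 to 24.4 in ovary and from 34.6 to 38.4 in uterus.

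The probes with the largest shared ratios on the higher side were not genes with a symbol. On chromosome 7, in mm9 coordinates chr7:28592214-28605984 on the plus strand, 5 probes of 2 overlapping intervals were tested, and all 5 were higher in the 3 tissues, 4 of them at least 2-fold. This region and the following ones were chosen after their values were seen. The brightest of the 5 had levels of −3.62, −1.88 and −1.79 on the control liver, ovary and uterus arrays and of −1.56, −0.57 and −0.33 on the BHPF arrays. Means of the 5 probes lay between 0.98 and 1.61, and their single ratios between 0.75 and 2.28. Probes of 1 interval share a transcript and are not independent.

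Of the 14 interval probes at least 1.5-fold higher in the 3 tissues, 5 lay on chromosome 7, 5 on chromosome 17, 3 on chromosome 3 and 1 on chromosome 11. On chromosome 17, at chr17:6265275-6832322, 4 such probes had means from 0.77 to 1.22, and 18 of the 28 tested interval probes there, these 4 included, were higher in the 3 tissues, against 28.5% of all tested interval probes. At chr3:79069438-79073704, 2 such probes had means of 1.06 and 0.83, and 4 of 6 tested probes, these 2 included, were higher in the 3 tissues. The places at chr17:46972160-46997919 and chr3:106858397-106896812 had 1 such probe each, with means of 0.91 and 1.27. No probe in these regions was called by the test.

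Oestrogen acts on the uterus through its receptor ER-alpha, encoded by *Esr1*, and induces epithelial and secretory genes there. An oestrogen-induced uterine list had 30 genes on the array, of which 18 were tested. All 30 were well above background on the control uterus array but 21 on the control liver array. The filter asked for signal in every tissue, so part of the genes with signal in uterus were not tested. Of the 18, 4 were lower and 2 higher in the 3 tissues, with medians of 0.16 in liver, −0.011 in ovary and −0.20 in uterus. The lower ones were *Lcn2*, *C3*, *Cdkn1a* and *Ccnd1*, of which *Cdkn1a*, a brake on the cell cycle, had ratios of −0.62, −0.064 and −0.73. The higher ones were the ligand *Wnt4*, with a mean of 0.28, and the water channel gene *Aqp5*, with 0.38. *Sprr2a2*, a cornified envelope gene, had ratios of −0.036, 0.18 and 0.22, and its mean of 0.12 turned to −0.017 under scaling to the 50th percentile and to −0.027 with the authors' table as headed. A direction shared with liver and ovary was thus not seen for most tested genes of the list, nor for most of all tested genes. The untested genes of the list are not covered by these values. Of its tested genes 22.2% were lower and 11.1% higher in the 3 tissues, against 13.6% and 15.3% of all tested genes. With the uterus sign turned, 1 gene of the list was lower and 3 were higher.

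*Esr1* itself had levels of 1.09, 0.070 and 2.75 on the control liver, ovary and uterus arrays and of 1.66, 0.21 and 2.77 on the BHPF arrays. Of 18 tested nuclear receptors 6 were higher (33.3%, against 15.3% of all tested genes) and 2 lower (11.1%, against 13.6%) in the 3 tissues. With the uterus sign turned, 0 were higher and 0 lower. The list median of 0.11 turned to −0.026 under scaling to the 50th percentile. *Nr1i3*, the xenobiotic receptor CAR, had ratios of 0.31, 0.11 and 0.73, and *Rara*, a retinoic acid receptor, had −0.20, −0.24 and −0.14.

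Genes of xenobiotic metabolism were measured in lists by their regulators. The aryl hydrocarbon receptor battery, 9 tested, had a median of 0.11 that turned negative under scaling to the 50th percentile, quantile normalization and cyclic loess, and *Cyp1b1*, an enzyme of this battery, had ratios of 0.12, −0.29 and −0.66. CAR and PXR target genes, 11 tested, had a median of 0.13 that turned to −0.011 under scaling to the 50th percentile, and *Cyp3a11*, a main drug-metabolising enzyme of liver, had −0.27 in liver and 4.91 on the uterus arrays, where hepatocyte markers were higher too. *Cyp2c55* had ratios of 1.34, 0.12 and 0.70. Of 17 tested NRF2 targets, which defend against oxidants, 7 were higher (41.2%) and 1 lower (5.88%) in the 3 tissues, with a median of 0.15. Over all tested genes 15.3% were higher and 13.6% lower. Turning the uterus sign left 2 of these targets higher and 0 lower. *Gsta1*, a glutathione transferase, had 1.26 in liver, 0.047 in ovary and 0.17 in uterus. The lower gene was *Hmox1*, haem oxygenase, with −0.73, −0.13 and −0.42. Metallothionein and iron genes had a median of −0.15 over 15 tested genes. In the 3 tissues 5 were lower (33.3%, against 13.6% of all tested genes) and 2 higher (13.3%, against 15.3%). Among the lower ones was the ferroxidase *Cp* with −0.26, −0.43 and −0.38. With the uterus sign turned, 3 genes of this list were lower and 1 higher.

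Lists for other processes had medians near that of all genes. The stress lists of heat shock genes (12 tested) and unfolded protein response genes (18 tested) had medians of 0.056 and 0.034, each negative under scaling to the 50th percentile. *Hspb1*, a small heat shock protein, was higher in the 3 tissues with 0.58, 0.24 and 0.32. Immediate early genes, 17 tested, had a median of −0.046, with *Egr1* at 1.97 in liver and 0.0073 in uterus. Glucocorticoid-induced genes, 19 tested, had a median of −0.0096, and *Zbtb16*, a hormone-responsive transcription factor, had 0.23, 0.43 and 0.34. The hypoxia list (19 tested) had a median of 0.012 that turned negative under scaling to the 50th percentile, quantile normalization and cyclic loess, and *Hk2*, a hexokinase, had −0.68, −0.23 and −0.72. Among 15 p53 targets, with a median of −0.0051, *Bbc3*, the apoptosis gene PUMA, had 0.65, 0.40 and 0.42.

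Circadian genes, which set daily rhythms in every tissue, had a median of 0.054 over 17 tested genes, negative under scaling to the 50th percentile. The activators *Arntl* and *Clock* had ratios of −0.80, −0.059 and −0.37 and of −0.41, −0.087 and −0.35, and the repressor *Cry1* had 0.20, 0.16 and 0.32. Cell cycle genes, 31 tested, had medians of −0.069, 0.023 and 0.20 in liver, ovary and uterus, and *Mki67*, the proliferation marker, had −0.58, 0.22 and 0.38. Replication-dependent histone genes, 12 tested, had a median of 0.042. The medians of the cell cycle and histone lists turned negative under scaling to the 50th percentile.

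Lipid lists had small medians. Cholesterol synthesis genes (23 tested) had 0.010, fatty acid synthesis genes (17 tested) 0.0051, and PPAR-alpha and fasting genes (17 tested) 0.050, and each turned negative under scaling to the 50th percentile, the first 2 also under quantile normalization and cyclic loess. *Pnpla3*, a lipase regulated by feeding, was higher in the 3 tissues with 0.31, 0.25 and 0.36. Respiratory chain genes (32 tested) had a median of 0.0090 and ribosomal protein genes (31 tested) one of 0.082. Both medians turned negative under scaling to the 50th percentile, the first also under quantile normalization and cyclic loess. In the 3 tissues 10 and 8 genes were higher (31.2% and 25.8%, against 15.3% of all tested genes) and 1 lower each (3.12% and 3.23%, against 13.6%). With the uterus sign turned, the first list had 8 higher and 6 lower, and the second 9 and 0. *Gapdh*, the endogenous control of the study, had ratios of 0.12, 0.0021 and −0.037, and its mean of 0.030 turned negative under scaling to the 50th percentile and quantile normalization. The 14 tested housekeeping genes had a median of 0.014, which turned negative under those scalings and cyclic loess. Collagen and matrix genes, 26 tested, had a median of −0.00022.

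Markers of the tissues' own cells were compared as well. Endothelial markers, 13 tested, had a median of −0.050, with 4 lower (30.8%, against 13.6% of all tested genes) and none higher in the 3 tissues. Turning the uterus sign gave 2 lower and 2 higher. *Pecam1*, the adhesion molecule CD31, had ratios of −0.75, −0.17 and −0.21. Smooth muscle markers, 7 tested, had medians of −0.52 in liver, 0.065 in ovary and −0.029 in uterus. Uterine epithelium markers (12 tested) had a median of 0.029, negative under scaling to the 50th percentile and quantile normalization, granulosa and theca cell markers (10 tested) one of −0.067, and oviduct markers (6 tested) one of −0.058. For oocytes 1 of 16 markers was tested, *H1f8*, with a mean of 0.23. Adipocyte markers, 10 tested, had a median of 0.19 in ovary and −0.27 in uterus, skeletal muscle markers, 7 tested, an overall median of −0.14 and pancreas acinar markers, 3 tested, one of 0.093. The adipocyte and pancreas medians over the 3 tissues turned negative under scaling to the 50th percentile, quantile normalization and cyclic loess.

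Across all probes the tissues shared little. The Pearson correlation of log2 ratios across the 30536 tested probes was 0.158 between liver and ovary, 0.119 between liver and uterus and 0.081 between ovary and uterus; probes are not independent replicates, and the tissues share the slide positions. Of the tested probes 20.6% were higher with BHPF in the 3 tissues and 11% were lower in the 3; with the uterus sign turned these shares were 15.6% and 10.4%. Probes with a symbol were nearly balanced, with 15.5% higher and 13.5% lower, whereas interval probes had 28.5% higher and 7.7% lower, or 15.7% and 6.5% with the uterus sign turned.

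The balance of signs varied with the mean level of a probe. In the dimmest of 5 classes of probes by mean level, 29.7% were higher and 6.37% lower in the 3 tissues, and the median liver ratio was 0.33, while in the class next to the brightest the shares were 12.3% and 15.4%. The brightest class again held more higher signs, with 20.5% higher and 8.86% lower. With the uterus sign turned, the dimmest class had 15.2% higher and 5.12% lower. The class next to the brightest then had 14.9% higher and 13.7% lower, which turned its balance, and the brightest 19.5% and 11.8%. The median ratio of 6 spiked-in control transcripts after scaling was −0.061 in liver, 0.50 in ovary and 0.088 in uterus, and their part in the gene ratios was not tested.

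**Figure D3:**
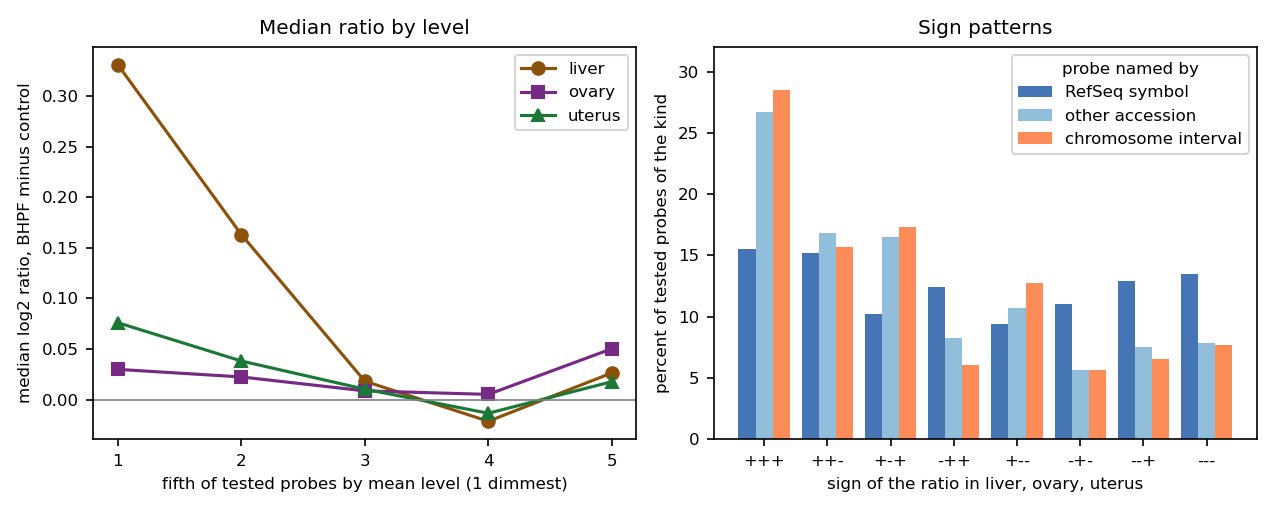
Left, median log2 ratio (BHPF minus control) of tested probes in 5 classes of mean level, from dimmest to brightest, for liver (circles), ovary (squares) and uterus (triangles), with the liver median at 0.33 in the dimmest class. Right, percent of tested probes with each order of signs in liver, ovary and uterus, by how the probe is named, with 28.5% of interval probes higher in the 3 tissues.

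In the limma fit with tissue as block, 0 of 30536 probes passed an adjusted p of 0.05, the smallest adjusted p was 0.406, and 2124 probes (6.96%), 1541 higher and 583 lower, had an unadjusted p under 0.05. The split of these depended on the scaling, with 542 higher and 1782 lower under the 50th percentile in place of the 75th, 916 and 1013 under quantile normalization and 962 and 987 under cyclic loess. Scaling to the 50th percentile moved the median of the mean ratios from 0.040 to −0.097 and that of liver from 0.069 to −0.24. With it, 45 of the 30536 probes were called, 7 higher and 38 lower, for 27 genes with a symbol. Of the 45, 41 were also at least 1.5-fold apart in the 3 tissues under the 75th percentile. The scalings differ by a constant per array on the same data, so this overlap is no separate support. The genes called lower included *Sirpb1c* (adjusted p of 0.00703), *S100a8* (0.00817), *Sirpb1a*, *Pira2*, *Lilra6*, *Clec4d*, *Msr1*, *Stfa1* and *Lcn2*, and 4 of the 7 probes called higher lay in the chromosome 7 region. Without the liver pair, *Stfa1* and *Cstdc5* (adjusted p of 0.0167 each) and *Stfa3* (0.0310) were called lower.

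The p-values measure how even a shift was over 3 tissues and say nothing of its spread among mice. For a single gene, an exact permutation test that flips the signs of 3 ratios cannot give a two-sided p below 0.25.

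Some probes were well above background on the 3 arrays of 1 treatment and on none of the other. Of 55681 probes there were 94 such probes on the control side, 27 of them with a symbol, and 0 on the BHPF side. Over all probes the share well above background was also smaller on the BHPF arrays. It was 61.4%, 69.4% and 64.8% in liver, ovary and uterus, against 63.9%, 74.6% and 68.9% on the control arrays. With the uterus labels exchanged other probes would qualify, and these were not counted. The lowest intensity called well above background was higher on the BHPF arrays, at 110, 120 and 135 in liver, ovary and uterus against 70.0, 93.3 and 95.6 on the control arrays. Each bound was taken against that floor and is a mean over the 3 tissues, not a bound in each tissue. By this mean, 32 of the 94 were bound to be lower with BHPF by more than 1-fold and 2 by at least 2-fold. *Gpr84*, a receptor for medium-chain fatty acids on myeloid cells, was at least 2.40-fold lower in the mean. *Clec4e*, a lectin that recognises a mycobacterial cord factor and works with *Clec4d*, was at least 1.95-fold lower in the mean. For *Lcp2*, an adaptor of immune receptor signalling, the mean bound was 1.56-fold. It came mostly from liver, with control levels of −3.03, −5.70 and −5.06 in liver, ovary and uterus against a mean floor of −5.24.

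Promoter windows of RefSeq genes (GRCm38.p6) were searched on both strands for 6 short motifs, as a description of the named genes since none was called. Of 13 lower genes 10 had a window, and of 10 higher genes 9. Background shares are given over all 32851 windows and then over the 27025 genes with a window, since the named genes are counted per gene. The C/EBP motif TTGCNNAA, of a factor family that drives granulocyte genes, was found in 10.8% of windows and 12.2% of genes. It was in *Lcn2*, *Stfa1* and *Cstdc5* among the lower genes and in *Jchain*, *Dleu2* and *Tgm3* among the higher ones. The E-box CACGTG (7.15% of windows, 8.09% of genes) was in *Dleu2*, and the D-box TTATGTAA (0.938% and 1.11%) was in none of the 19. The xenobiotic response core GCGTG (32.4% and 35.2%) was in *Stfa3*, *Tmem179* and *Asphd2*. The antioxidant response core TGACNNNGC (12.4% and 14%) was in *Lilra6*, *Tmem179* and *Jchain*. The nuclear receptor motif AGGTCA (16.3% and 18.1%) was in *Jchain*, *Tgm3* and *Acot5*. A match is not a binding site, and no match says only that the letters are not in the window.

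The stefin A genes lie together on chromosome 16, and a stretch of 120 bases upstream of the start is shown for each because these genes had the lowest shared ratios. Capitals mark the C/EBP letters. The windows were 79.6% identical between *Stfa1* and *Cstdc5*, 79.1% between *Cstdc5* and *Stfa3* and 62.4% between *Stfa1* and *Stfa3*, aligned without gaps. The stretches lie at chr16:36276979-36277098 on the plus strand for *Stfa1*, at chr16:36367599-36367718 on the minus strand for *Cstdc5* and at chr16:36455444-36455563 on the minus strand for *Stfa3*.
Stfa1: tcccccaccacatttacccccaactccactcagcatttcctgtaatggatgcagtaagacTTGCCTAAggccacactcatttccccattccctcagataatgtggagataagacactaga
Cstdc5: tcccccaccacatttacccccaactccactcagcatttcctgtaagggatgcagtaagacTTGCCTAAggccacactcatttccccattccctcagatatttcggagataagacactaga
Stfa3: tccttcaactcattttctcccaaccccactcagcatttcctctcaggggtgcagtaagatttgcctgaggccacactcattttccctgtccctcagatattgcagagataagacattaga

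The *Sirpb1* genes lie on chromosome 3, and their stretches are shown because *Sirpb1c* was the most even of the 13 lower genes in the plot and the windows are nearly alike, with 98.1% identity between *Sirpb1b* and *Sirpb1c*, 95.7% between *Sirpb1a* and *Sirpb1b* and 95.6% between *Sirpb1a* and *Sirpb1c*. None of them holds the C/EBP letters. The stretches lie on the minus strand at chr3:15426558-15426677 for *Sirpb1a*, chr3:15575103-15575222 for *Sirpb1b* and chr3:15848566-15848685 for *Sirpb1c*.
Sirpb1a: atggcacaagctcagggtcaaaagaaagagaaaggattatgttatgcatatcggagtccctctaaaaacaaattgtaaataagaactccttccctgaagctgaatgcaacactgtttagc
Sirpb1b: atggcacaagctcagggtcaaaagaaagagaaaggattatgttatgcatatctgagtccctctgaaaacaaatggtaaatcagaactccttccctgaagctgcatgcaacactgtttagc
Sirpb1c: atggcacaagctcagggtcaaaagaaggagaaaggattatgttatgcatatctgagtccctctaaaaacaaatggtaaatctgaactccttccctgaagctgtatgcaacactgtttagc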

How the data were processed

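The deposited scanner files of the 6 one-colour arrays, made with Agilent Feature Extraction, give each spot a linear intensity from which background was subtracted. A deposited table by the authors, in log2 units, served as an alternative only. Its uterus columns hold the scanner values of the opposite treatment, and which labelling is right was not tested. Outlier and control spots were left out, spots of a probe were averaged in log2 units, and each array's 75th percentile was subtracted. Probes well above background on all 6 arrays were fitted with limma 3.58.1 (R 4.3.3) with terms for tissue, as the block that pairs the arrays, and treatment, default eBayes, residual degrees of freedom 2, two-sided, Benjamini-Hochberg adjusted p of 0.05. Tables were made with Python 3.11.15, pandas 2.3.3 and numpy 2.4.6. Symbols came from RefSeq accessions (26762 probes, 48.1%), and a gene is shown by its brightest tested probe.

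Named genes were, in each direction, the 10 with the smallest p among genes with the same sign in 3 tissues (none being called), the 5 with the largest smallest ratio, the first 3 measured genes of each of 26 gene lists and 19 marker lists, *Gapdh*, *Sprr2* genes of the study, and the 3 largest bounds among probes above background in 1 treatment only. A few genes met by this rule are left out. The members, lists and rule were chosen with earlier results of these data known. 18 alternatives were run, in scaling, background correction, filter, block, eBayes options, threshold, probes or symbols, source table and tissues left out. Normexp was run on the median spot signal because the files hold no mean signal.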

Additional observations from a re-analysis of the deposited data

Results flagged for a closer look

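*Saa2* had a log2 ratio (BHPF minus control) of −1.15 in liver and of 1.13 in ovary, so that the same serum amyloid gene was at least 2-fold apart in opposite directions in these tissues. *Adipoq*, the fat cell hormone adiponectin, had a log2 ratio of 1.35 in ovary and of −3.31 in uterus. *Cfd*, the complement protease adipsin, which fat cells also secrete, had a log2 ratio of 2.05 in ovary and of −2.71 in uterus. If the uterus labels were exchanged, which was not tested, *Adipoq* and *Cfd* would be higher in both ovary and uterus. The opposition between ovary and uterus would then be gone for both genes. Their liver log2 ratios were −0.15 for *Adipoq* and −1.63 for *Cfd*, so liver and ovary would stay opposite. The 3 genes stood out because 1 array pair moved one way and another pair the opposite way. The difference was not tested for any of the 3 genes, since each tissue had 1 array per treatment.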

How the results depend on the processing

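Values here are mean log2 ratios over the tissues unless a count is given. No probe was called in the limma fit, nor under any of the 18 alternatives apart from scaling to the 50th percentile and leaving out liver, with a smallest adjusted p between 0.00703 and 1 over the alternatives. Under every alternative that was run, *Stfa3* stayed between −4.49 and −2.28, *S100a8* between −2.93 and −1.45, *Lcn2* between −1.21 and −0.58 and *Sirpb1c* between −1.61 and −0.54. Of the named gene values 2333 kept their direction with no call, 17 gained a call and 198 took the other sign. Of the list medians 604 moved by less than the SD among tissues and 56 by more. Of the counts 65 were within 1.5-fold of the reported one and 31 were not. Signal over background limits what could be tested, since 55365 probes were fitted without the filter and 30536 with it. The shift under the 50th percentile is a constant per array, the authors' table as headed holds the uterus arrays in exchanged columns, and leaving out a tissue leaves 2 pairs, whose spread the fit pools over probes. For every other value below the cause was not tested.

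With scaling to the 50th percentile there were 7 probes called higher (from 0), 38 probes called lower (from 0), 14 probes at least 1.5-fold higher in all 3 tissues (from 24) and 20 probes at least 2-fold lower in all 3 tissues (from 11). The named genes whose mean log2 ratio took the other sign there were *Per1* −0.083, *Fosb* −0.047, *Fkbp5* −0.059, *Tsc22d3* −0.12, *Hsph1* −0.085, *Dnajb1* −0.041, *Pdk4* −0.10, *Hmgcs1* −0.12, *Acaca* −0.13, *Acacb* −0.12, *Mki67* −0.13, *Top2a* −0.10, *Mdm2* −0.091, *Vegfa* −0.094, *Slc2a1* −0.089, *Esr2* −0.089, *Nr3c1* −0.13, *Ndufa2* −0.076, *Rpl3* −0.075, *H1f1* −0.12, *H1f2* −0.046, *Col1a2* −0.082, *Col3a1* −0.12, *Gapdh* −0.11, *Hba-a1* −0.013, *Ccr2* −0.054, *Cd3g* −0.054, *Cela3b* −0.045, *Ccdc39* −0.12, *Krt8* −0.11, *Krt18* −0.11, *Actg2* −0.12, *Foxl2* −0.0078 and *Sprr2a2* −0.017. List medians that moved were −0.20 for interferon-induced genes, −0.083 for circadian clock genes, −0.18 for immediate early genes, −0.082 for heat shock genes, −0.10 for unfolded protein response genes, 0.015 for NRF2 target genes, −0.028 for aryl hydrocarbon receptor battery, −0.087 for PPAR-alpha and fasting genes, −0.13 for cholesterol synthesis genes, −0.13 for fatty acid synthesis genes, −0.11 for cell cycle genes, −0.14 for p53 target genes, −0.13 for hypoxia-induced genes, −0.026 for nuclear receptors, −0.28 for metallothionein and iron genes, −0.13 for respiratory chain genes, −0.055 for ribosomal protein genes, −0.14 for collagen and matrix genes, −0.12 for housekeeping genes, −0.22 for monocyte markers, −0.027 for B cell markers, −0.11 for uterine epithelium markers, −0.20 for granulosa and theca cell markers and −0.19 for endothelial markers.

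With no filter on dim probes there were 3952 probes at least 1.5-fold higher in all 3 tissues (from 24), 113 probes at least 1.5-fold lower in all 3 tissues (from 40), 42 probes at least 2-fold higher in all 3 tissues (from 6) and 33 probes at least 2-fold lower in all 3 tissues (from 11).

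With averaging the probes of a symbol there were 2 genes at least 1.5-fold higher in all 3 tissues (from 24), 24 genes at least 1.5-fold lower in all 3 tissues (from 40) and 0 genes at least 2-fold higher in all 3 tissues (from 6). Those earlier counts are of probes with and without a symbol, and with the brightest probe of each symbol the fit had 2 genes at least 1.5-fold higher, 25 at least 1.5-fold lower and 0 at least 2-fold higher, so most of the difference comes from leaving out probes without a symbol and counting genes once. The named genes whose mean log2 ratio took the other sign there were *Fosl2* 0.029, *Hsph1* −0.011, *Ccnb1* 0.0033, *Gapdh* −0.0035, *Ms4a4c* −0.0016 and *Retn* 0.088. List medians that moved were 0.029 for immediate early genes.

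With the authors' table as headed there were 4 probes at least 1.5-fold higher in all 3 tissues (from 24), 5 probes at least 1.5-fold lower in all 3 tissues (from 40), 0 probes at least 2-fold higher in all 3 tissues (from 6) and 3 probes at least 2-fold lower in all 3 tissues (from 11). The named genes whose mean log2 ratio took the other sign there were *Saa2* 0.081, *Tsc22d3* −0.079, *Dnajb1* −0.089, *Hspa5* 0.012, *Hsp90b1* 0.043, *Ddit3* −0.035, *Cyp1b1* 0.16, *Ahrr* −0.10, *Tiparp* 0.084, *Cyp2b13* −0.60, *Cyp3a11* −1.68, *Pdk4* −0.19, *Hmgcs1* −0.092, *Acaca* −0.024, *Mki67* −0.25, *Top2a* −0.12, *Cdkn1a* 0.015, *Mdm2* −0.025, *Slc2a1* −0.17, *Car9* −0.043, *Greb1* 0.036, *Esr2* −0.046, *Nr3c1* −0.066, *Tfrc* 0.16, *Ndufa1* −0.053, *Ndufa2* −0.017, *Ndufa4* 0.025, *Rpl3* −0.00090, *H1f5* −0.052, *H1f2* −0.17, *Col1a1* 0.043, *Col1a2* −0.018, *Hba-a1* −0.18, *Hba-a2* 0.12, *Ccr2* −0.071, *Plac8* 0.0055, *Ms4a4c* −0.0064, *Pax5* −0.10, *Cd3d* −0.28, *Cd3e* −0.19, *Cd3g* −0.22, *Klrb1c* −0.14, *Klrd1* −0.17, *Alb* −1.36, *Apoa1* −1.78, *Apoa2* −1.24, *Adipoq* 1.505, *Cfd* 1.04, *Retn* 0.26, *Cela1* 0.17, *Tnnt3* 0.10, *Rsph1* −0.34, *Krt18* −0.060, *Krt19* −0.0062, *Foxl2* −0.056, *Kdr* 0.016 and *Sprr2a2* −0.027. List medians that moved were 0.035 for interferon-induced genes, −0.071 for circadian clock genes, 0.017 for heat shock genes, 0.064 for NRF2 target genes, −0.069 for CAR and PXR target genes, 0.040 for fatty acid synthesis genes, −0.038 for nuclear receptors, 0.030 for ribosomal protein genes, 0.0043 for B cell markers, −0.093 for T cell markers, −1.03 for hepatocyte markers and 0.055 for granulosa and theca cell markers.

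With a filter that asked for 1 array above background in each tissue there were 76 probes at least 1.5-fold lower in all 3 tissues (from 40), 12 probes at least 2-fold higher in all 3 tissues (from 6) and 27 probes at least 2-fold lower in all 3 tissues (from 11).

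With normexp background correction with an offset of 50 there were 2 probes at least 2-fold higher in all 3 tissues (from 6) and 7 probes at least 2-fold lower in all 3 tissues (from 11). The named genes whose mean log2 ratio took the other sign there were *Per1* −0.041, *Dnajb1* −0.18, *Hspa5* 0.14, *Hsp90b1* 0.069, *Pdk4* −0.12, *Acacb* −0.058, *Ccnb1* 0.025, *Ccng1* 0.18, *Vegfa* −0.020, *Mt1* 0.090, *Ndufa2* −0.16, *H1f1* −0.054, *Itga2b* 0.24, *Cd3g* −0.017, *Krt8* −0.0076, *Krt18* −0.022, *H1f8* −0.048 and *Kdr* 0.0020. List medians that moved were −0.14 for interferon-induced genes, 0.015 for heat shock genes and −0.055 for fatty acid synthesis genes.

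With quantile normalization within each tissue the named genes whose mean log2 ratio took the other sign were *Fosb* −0.057, *Tsc22d3* −0.0057, *Hmgcs1* −0.016, *Acaca* −0.010, *Mki67* −0.013, *Top2a* −0.0062, *Nr3c1* −0.017, *H1f1* −0.051, *Col1a2* −0.043, *Col3a1* −0.092, *Gapdh* −0.029, *Cela3b* −0.063, *Krt18* −0.0016 and *Actg2* −0.064. List medians that moved were −0.016 for aryl hydrocarbon receptor battery, −0.047 for hypoxia-induced genes, −0.031 for respiratory chain genes, 0.010 for ribosomal protein genes and −0.063 for pancreas acinar markers.

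With cyclic loess the named genes whose mean log2 ratio took the other sign were *Fosb* −0.0098, *Hmgcs1* −0.0011, *Acaca* −0.0097, *Mki67* −0.0099, *Nr3c1* −0.0092, *H1f1* −0.062, *Col3a1* −0.015, *Cela3b* −0.016 and *Ccdc39* −0.0063. List medians that moved were −0.0017 for aryl hydrocarbon receptor battery, 0.040 for nuclear receptors and −0.011 for respiratory chain genes.

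Leaving out each tissue in turn gave from 0 to 3 probes called lower, from 46 to 202 probes at least 1.5-fold higher in both remaining tissues, from 58 to 125 probes at least 1.5-fold lower in both remaining tissues, from 8 to 21 probes at least 2-fold higher in both remaining tissues and from 19 to 37 probes at least 2-fold lower in both remaining tissues. The named genes that took both signs ranged *Saa2* from −0.71 to 0.43, *Per1* from −0.0082 to 0.095, *Fos* from −0.23 to 0.64, *Fosb* from −0.0053 to 0.18, *Fosl2* from −0.17 to 0.056, *Tsc22d3* from −0.046 to 0.12, *Hspa1a* from −0.0074 to 0.37, *Hsph1* from −0.0063 to 0.11, *Hsp90b1* from −0.026 to 0.030, *Tiparp* from −0.11 to 0.045, *Cyp3a11* from −0.061 to 2.53, *Cyp3a13* from −0.73 to 0.12, *Pdk4* from −0.11 to 0.24, *Hmgcs1* from −0.055 to 0.089, *Sqle* from −0.073 to 0.014, *Acaca* from −0.021 to 0.054, *Acacb* from −0.079 to 0.17, *Mki67* from −0.18 to 0.30, *Top2a* from −0.068 to 0.12, *Ccnb1* from −0.20 to 0.20, *Ccng1* from −0.19 to 0.073, *Vegfa* from −0.047 to 0.091, *Slc2a1* from −0.090 to 0.15, *Esr2* from −0.090 to 0.23, *Nr3c1* from −0.043 to 0.073, *Mt1* from −0.38 to 0.14, *Mt2* from −0.11 to 0.014, *Tfrc* from −0.18 to 0.083, *H1f1* from −0.059 to 0.11, *H1f2* from −0.061 to 0.20, *Col3a1* from −0.0074 to 0.043, *Gapdh* from −0.017 to 0.063, *Hba-a1* from −0.044 to 0.26, *Hba-a2* from −0.15 to 0.075, *Itga2b* from −0.15 to 0.15, *Vpreb3* from −0.014 to 0.40, *Cd3g* from −0.10 to 0.30, *Ncr1* from −0.017 to 0.39, *Klrb1c* from −0.026 to 0.44, *Klrd1* from −0.019 to 0.44, *Adipoq* from −1.73 to 0.60, *Cfd* from −2.17 to 0.21, *Retn* from −0.19 to 0.19, *Cela3b* from −0.0071 to 0.19, *Rsph1* from −0.10 to 0.67, *Ccdc39* from −0.033 to 0.11, *Krt8* from −0.034 to 0.11, *Krt18* from −0.023 to 0.072, *Acta2* from −0.35 to 0.038, *Actg2* from −0.015 to 0.060 and *Inhba* from −0.17 to 0.040. The list medians ranged from −0.14 to −0.047 for interferon-induced genes, from 0.057 to 0.17 for NRF2 target genes, from −0.011 to 0.22 for aryl hydrocarbon receptor battery, from −0.021 to 0.050 for fatty acid synthesis genes, from 0.0016 to 0.049 for respiratory chain genes and from −0.00020 to 0.091 for housekeeping genes.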
